A study of Mus musculus with 12 samples.

Results

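The pyruvate dehydrogenase complex controls the entry of pyruvate carbon into the mitochondrial citric acid cycle. The 10 genes described here encode the proteins that set this step: the kinases Pdk1, Pdk2, Pdk3 and Pdk4, the phosphatases Pdp1 and Pdp2, the subunits Pdha1 and Pdhb of the E1 enzyme, and the subunits Mpc1 and Mpc2 of the mitochondrial pyruvate carrier. They were selected by gene symbol and not by their values. All 10 were found among the 17397 genes of the count table of mouse heart RNA, and all 10 were among the 12778 genes that passed the filter on low counts.

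Hearts of 8-week-old wild-type male C57BL/6J mice were sequenced in 4 groups of 3 libraries. Control mice were sedentary and labelled saline. Trained mice ran on a treadmill 5 days per week for 4 weeks, the first an adaptation week with 5 min each at 6, 9, 12 and 15 m/min, followed by sessions that opened with 5 min at 6 m/min and went on for 35 min at 12 m/min. Tumour mice were sedentary and received 100000 B16F10 cells, a mouse melanoma line, into the tail vein from week 2 as a model of cancer cachexia. Tumour trained mice received the same cells and the same training. Whether trained mice were given saline, whether a library came from 1 mouse, and whether the hearts carried melanoma deposits are not stated in the labels, so that the tests reflect the spread among these libraries, which may be technical.

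Kinases of this family phosphorylate the alpha subunit of E1, which is encoded by Pdha1, and thereby switch the complex off. The phosphatases remove these phosphates and switch it on again. In the heart PDK4 and PDK2 are the best known kinases. Transcription of Pdk4 is known to increase in fasting and other states of high fat use, through PPAR nuclear receptors, FoxO factors and the glucocorticoid receptor, whereas Pdk1 is a target of hypoxia-inducible factor. The pyruvate carrier is an obligate pair of MPC1 and MPC2 in the inner mitochondrial membrane.

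The proximal promoters of 3 kinase genes are shown, chosen with the values known, because their patterns across the 12 libraries differed most clearly. The windows are the 250 bases before the annotated start in RefSeq (GRCm38.p6), written 5′ to 3′ along the gene's strand. RefSeq entries matched 9 of the 10 genes, all but Pdp1. Capitals mark matches, on either strand, to 7 motifs. The FoxO element was searched as GTAAACA. A half-site of nuclear receptors was searched as AGGTCA and that of the glucocorticoid receptor as TGTTCT. The core bound by hypoxia-inducible factor was searched as ACGTG, which also lies inside the E box, searched as CACGTG. The GC box was searched as GGGCGG and the CCAAT box by the letters of its name.
Pdk4, chr6:5496279-5496528, minus strand: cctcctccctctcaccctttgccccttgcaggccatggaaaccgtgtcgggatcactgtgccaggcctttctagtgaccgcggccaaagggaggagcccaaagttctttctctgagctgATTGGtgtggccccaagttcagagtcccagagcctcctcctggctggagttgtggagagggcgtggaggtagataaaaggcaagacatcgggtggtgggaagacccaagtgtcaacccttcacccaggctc
Pdk2, first of 2 windows, chr11:95041372-95041621, minus strand: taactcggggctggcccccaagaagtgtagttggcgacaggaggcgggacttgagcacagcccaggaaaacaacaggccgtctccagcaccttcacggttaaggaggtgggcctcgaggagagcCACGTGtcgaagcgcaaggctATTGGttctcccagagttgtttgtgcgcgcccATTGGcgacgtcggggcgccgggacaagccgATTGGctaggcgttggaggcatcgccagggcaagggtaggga
Pdk3, chrX:93832151-93832400, minus strand: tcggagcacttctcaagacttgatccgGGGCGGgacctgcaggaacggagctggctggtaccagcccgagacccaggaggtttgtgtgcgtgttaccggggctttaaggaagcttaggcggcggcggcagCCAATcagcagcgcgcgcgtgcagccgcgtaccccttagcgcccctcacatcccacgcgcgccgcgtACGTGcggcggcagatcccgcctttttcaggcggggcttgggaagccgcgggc

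The Pdk4 window held 1 match, a CCAAT box on the opposite strand 131 bases before the start. The Pdk2 window held an E box 126 bases before the start, with the hypoxia factor core inside it on both strands, and 3 CCAAT boxes. The Pdk3 window held a GC box, a CCAAT box and a hypoxia factor core. CCAAT boxes were present in 33.9% of all 32851 promoter windows of this length, GC boxes in 32.7%, the hypoxia factor core in 16.6%, glucocorticoid half-sites in 16.1%, nuclear receptor half-sites in 14.0%, E boxes in 6.02% and the FoxO element in 3.17%. The windows of Pdk4, Pdk2 and Pdk3 held 6, 19 and 29 CG dinucleotides, and the median of all windows was 6. These matches describe the letters of the windows and were not tested for binding.

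Total counts were 8843906 to 13344847 per library. Tumour 1 and tumour 2 stood apart from the other 10 libraries. The 12 cardiomyocyte markers held 3.04% and 7.46% of their counts, against 11.8% in tumour 3 and 11.7% to 12.8% in control, trained and tumour trained libraries. The 7 melanocyte markers held 1.18% and 0.529% of counts in tumour 1 and 2, against 0.00767% in tumour 3 and at most 0.00796% elsewhere. Among them only Tyrp1 was at 0 in all 9 other libraries, and its counts in the tumour libraries were 61345, 21693 and 15. The RNA protocol names livers, but 4 hepatocyte markers together held at most 0.000638% of counts in any library. In bulk RNA, fewer cardiomyocytes, less RNA per cardiomyocyte and added RNA from other cells each lower the cardiomyocyte share and cannot be told apart. For the 10 members, results that turn on the tumour group are therefore given with all 12 libraries and beside fits with tumour 3 as the only tumour library or scaled to the cardiomyocyte markers. For other genes, the scaled value is given where it ends a call made with 12 libraries or turns its direction.

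Pdk4 (gene ID 27273) had the widest range of the abundant members. Its level, in counts relative to the adjusted size of the library (scaled CPM), was 375, 764 and 976 in control 1, 2 and 3. Levels were 752, 1391 and 3995 scaled CPM in tumour 1, 2 and 3. In tumour trained hearts the 3 levels were 417, 884 and 510.0 scaled CPM, and in trained hearts 1389, 1124 and 566. Tumour 3 was above every other library, whereas tumour 1 fell within the control range and tumour 2 was nearly level with trained 1. Mean levels were 705 ± 305 in control, 1026 ± 420 in trained, 2046 ± 1718 in tumour and 604 ± 247 scaled CPM in tumour trained hearts (SD, n = 3).

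With all 12 libraries, the log2 fold change of Pdk4 in tumour against control hearts was 1.54 ± 0.60 (SE, edgeR adjusted p = 0.10), which did not pass the threshold of 0.05. Against tumour hearts, tumour trained hearts had a log2 fold change of -1.76 ± 0.60 (edgeR adjusted p = 0.079). With tumour 3 as the only tumour library, Pdk4 was higher in tumour than in control hearts by 2.51 ± 0.50 on the log2 scale (edgeR adjusted p = 0.037). In the same fit it was lower in tumour trained than in tumour hearts, with a log2 fold change of -2.74 ± 0.50 (edgeR adjusted p = 0.033). That fit holds 1 tumour library, which is assumed to vary like those of the other groups. Pdk4 was the only one of the 10 members called in either comparison there, where 1.40% and 0.723% of all genes were called. Leaving out tumour 3 instead gave log2 fold changes of 0.56 and -0.80, and neither passed the test.

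**Figure D1:**
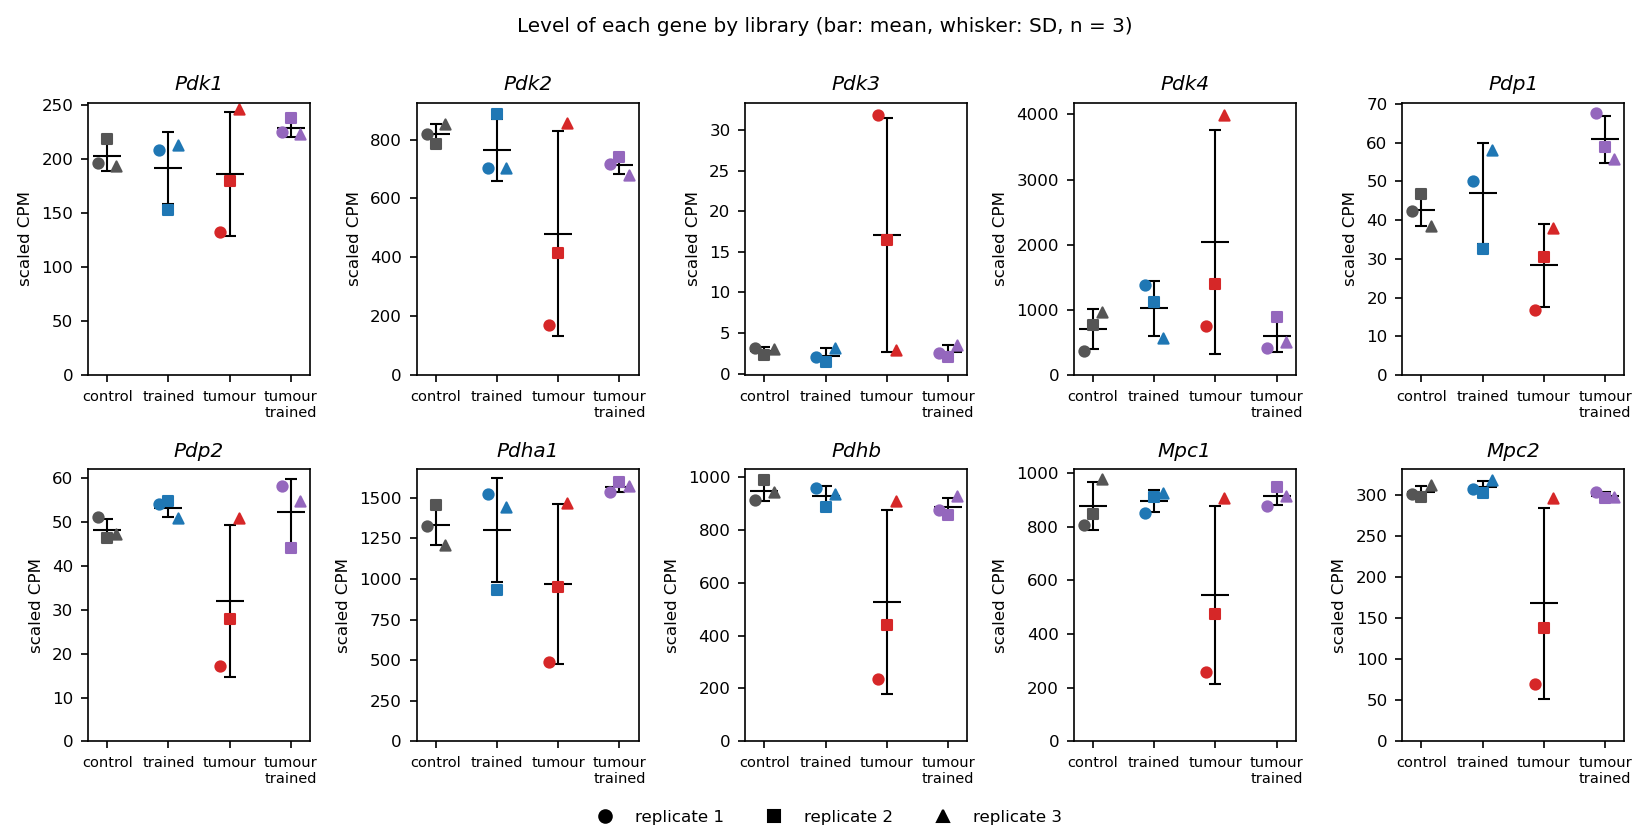
Scaled CPM of the 10 genes in each library (y axis, linear from near 0, a separate scale for each gene) by group (x axis); circles, squares and triangles are replicates 1, 2 and 3, horizontal bars are group means and whiskers are SD (n = 3). Tumour 3 has 3995 scaled CPM of Pdk4, while Pdk2, Pdhb, Mpc1 and Mpc2 are lowest in tumour 1, next lowest in tumour 2 and within the range of the other groups or close to it in tumour 3.

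Relative to cardiomyocyte transcripts, Pdk4 was high in every tumour library. Per 1000 counts of the 12 cardiomyocyte markers, there were 31.0, 20.7 and 32.2 Pdk4 counts in tumour 1, 2 and 3. Control 1, 2 and 3 had 2.91, 6.13 and 7.55, trained 1, 2 and 3 had 10.5, 8.85 and 4.60, and tumour trained 1, 2 and 3 had 3.44, 7.38 and 4.05. The 3 tumour libraries lay above all 9 others, and the tumour mean of 28.0 ± 6.34 was 5.06-fold the control mean of 5.53 ± 2.38 (SD, n = 3). Tumour trained hearts had a mean of 4.95 ± 2.12, inside the control range. By this measure all 10 members were above their control mean in tumour 1, from 1.09-fold for Pdk2 to 59.8-fold for Pdk3. In scaled CPM, Pdk4 in tumour 1 was 1.07 times the control mean. Whether the Pdk4 counts came from cardiomyocytes was not tested.

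When the whole table was scaled to the cardiomyocyte markers, Pdk4 was higher in tumour than control hearts by 2.34 ± 0.43 on the log2 scale (edgeR adjusted p = 0.020). It was lower in tumour trained than tumour hearts, at -2.50 ± 0.43 (edgeR adjusted p = 0.025). This scaling moved the median of all genes by 1.54 and -1.41 in these comparisons, so that 71.3% and 59.7% of genes were called, and Pdk4 lay 0.79 above the first and 1.08 below the second (log2 differences of 0.79 and -1.08). With the scaling used elsewhere the medians of all genes were 0.11 and -0.04.

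Ratios within a library do not depend on the scaling and gave the same order. Their denominators Pdha1, Pdhb and Pdk2 were below all control libraries in tumour 1 and 2, as were the cardiomyocyte markers. The ratios are therefore not independent of the scaling to these markers. In tumour 1 Pdk4 was 1.07 times and the cardiomyocyte markers 0.25 times the control mean. The log2 ratio of Pdk4 to the mean of Pdha1 and Pdhb was -1.58, -0.68 and -0.14 in control 1, 2 and 3 and 1.06, 1.00 and 1.75 in tumour 1, 2 and 3. In tumour trained 1, 2 and 3 it was -1.53, -0.47 and -1.29. All 3 tumour libraries were above all control and all tumour trained libraries. The difference of means was 2.07 in tumour against control and -2.37 in tumour trained against tumour hearts (exact two-sided permutation p = 0.1 for each, adjusted p = 0.25 over 20 ratio tests). An exact test of 3 against 3 libraries cannot give a p below 0.1.

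Pdk2 (gene ID 18604), the other abundant kinase transcript, did not share this pattern. Its levels were 819, 786 and 854 scaled CPM in control 1, 2 and 3 and 169, 416 and 856 in tumour 1, 2 and 3. They were 705, 887 and 704 scaled CPM in trained and 717, 741 and 680.1 in tumour trained hearts. Tumour 1 and 2 were the lowest of the 12 libraries and tumour 3 was in the upper part of the range. Per 1000 cardiomyocyte marker counts, Pdk2 was 6.98, 6.18 and 6.91 in tumour 1, 2 and 3, and the other 9 libraries ran from 5.30 to 6.98.

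The log2 fold change of Pdk2 in tumour against control hearts was -0.77 ± 0.42 with 12 libraries (edgeR adjusted p = 0.20) and 0.07 ± 0.14 with tumour 3 alone (edgeR adjusted p = 0.92). For tumour trained against tumour hearts the values were 0.57 ± 0.42 and -0.28 ± 0.14 (edgeR adjusted p = 0.35 and 0.37). The log2 ratio of Pdk4 to Pdk2 was -1.13, -0.04 and 0.19 in control and 2.15, 1.74 and 2.22 in tumour 1, 2 and 3. It was -0.78, 0.25 and -0.42 in tumour trained hearts. Its difference was 2.36 in tumour against control and -2.35 in tumour trained against tumour hearts, with no overlap between the libraries compared (exact permutation p = 0.1 for each, adjusted p = 0.25).

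**Figure D2:**
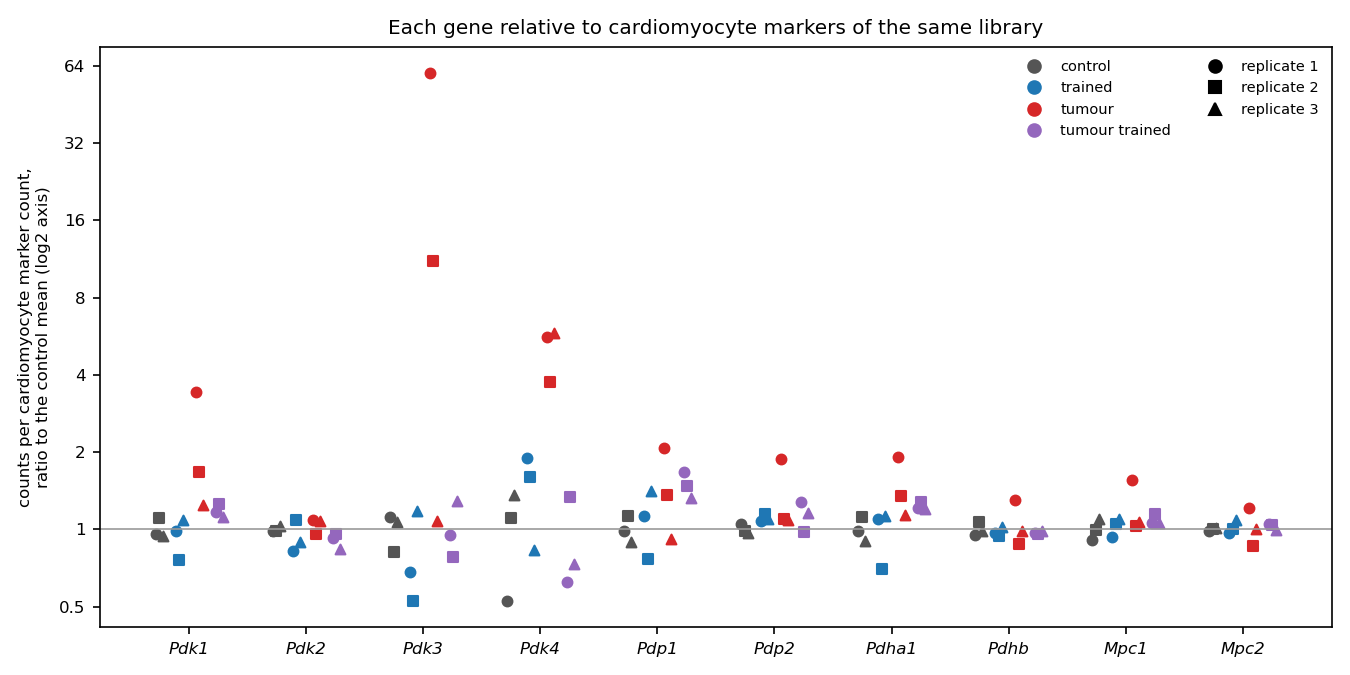
Counts of each gene per cardiomyocyte marker count, divided by the mean of the 3 control libraries (y axis, log2 scale), for the 10 genes (x axis); colours are groups and shapes are replicates. The 3 tumour libraries are at 5.61, 3.74 and 5.83 for Pdk4 and at 1.09, 0.96 and 1.08 for Pdk2, and the grey line marks the control mean.

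The make-up of the kinase transcripts was compared on a scale of scaled CPM per kilobase of exon, to set genes of different length side by side. The length is the union of all annotated exons of a gene, which need not equal the length of the transcripts expressed. Levels of different genes on this scale are therefore approximate. Pdk4 made up 72.1%, 71.1% and 78.9% of the 4 kinases in tumour 1, 2 and 3. Its share was 27.2% to 48.4% in control, 39.1% to 61.2% in trained and 31.6% to 48.7% in tumour trained hearts. Pdk2 made up 18.0% to 23.6% in tumour hearts and 47.1% to 66.0% in control hearts. The share of Pdk4 in the 3 tumour libraries was above that of all 9 others, and the share of Pdk2 was below.

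The sum of the 4 kinases was 297, 557 and 1441 scaled CPM per kilobase in tumour 1, 2 and 3 and 392, 495 and 574 in control 1, 2 and 3. Only tumour 3 had a sum above those of all other libraries, the highest of which was 646 in trained 1. The kinase shares are ratios within a library, whereas their sum depends on the scaling. In tumour 1 Pdk4 was at 214 and Pdk2 at 53.5 scaled CPM per kilobase, against control means of 201 and 259. The high share of Pdk4 in tumour 1 thus came with a low level of Pdk2.

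**Figure D3:**
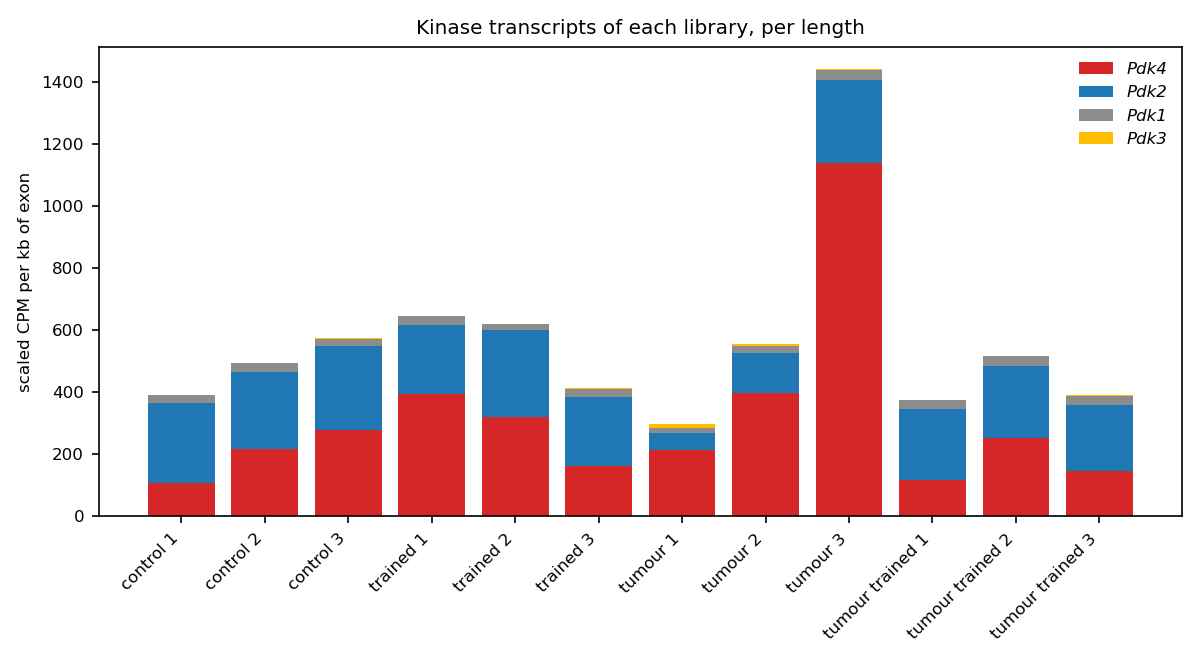
Scaled CPM per kilobase of exon (y axis) of the 4 kinase genes, stacked, in each of the 12 libraries (x axis). Pdk4 is the largest segment in tumour 1, 2 and 3 with 72.1%, 71.1% and 78.9% of the sum, and the sums there are 297, 557 and 1441.

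Pdk1 (gene ID 228026), the kinase known as a hypoxia target, had 132, 179.7 and 246 scaled CPM in tumour 1, 2 and 3 against 196, 219 and 194 in control hearts. Tumour 1 was the lowest and tumour 3 the highest of the 12 libraries. The log2 fold change in tumour against control hearts was -0.12 ± 0.22 with 12 libraries (edgeR adjusted p = 0.68) and 0.29 ± 0.17 with tumour 3 alone (edgeR adjusted p = 0.52). Per cardiomyocyte marker count it was 3.43, 1.68 and 1.25 times the control mean in tumour 1, 2 and 3, and scaled to these markers it was higher in tumour than control hearts by 1.08 ± 0.34 on the log2 scale (edgeR adjusted p = 0.021). That difference is below the shift of 1.54 in the median of all genes under this scaling. In trained hearts Pdk1 was at 209, 153 and 213 and in tumour trained hearts at 225, 238 and 223 scaled CPM.

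Pdk3 (gene ID 236900) was the least abundant kinase and the only member called in tumour against control hearts with 12 libraries. Its levels were 31.8, 16.4 and 2.95 scaled CPM in tumour 1, 2 and 3, which came from 533, 236 and 32 counts. The other 9 libraries had 17 to 34 counts, or 1.47 to 3.57 scaled CPM. Tumour 3 lay inside the range of those 9. The log2 fold change was 2.60 ± 0.65 in tumour against control (edgeR adjusted p = 0.045) and -2.65 ± 0.65 in tumour trained against tumour hearts (edgeR adjusted p = 0.036).

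With tumour 3 as the only tumour library the Pdk3 values were 0.08 ± 0.43 and -0.13 ± 0.44 (edgeR adjusted p = 0.98 and 0.91). The tumour against control call was also lost when any 1 library other than tumour 3 was left out, with log2 fold changes of 1.77 to 2.65. The call in tumour trained against tumour hearts was lost without any 1 library other than tumour 3 or trained 2. The 2 libraries high in Pdk3 were those high in melanocyte markers (1.18% and 0.529% of counts) and in 5 cell cycle markers (0.0889% and 0.0266%, against at most 0.000871% elsewhere). Whether melanoma cells account for the Pdk3 counts was not tested.

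The count of members called was thus 1 of 10 in tumour against control hearts, where 6.80% of all genes were called. In tumour trained against tumour hearts it was 2 of 10, Pdk3 lower and Pdp1 higher, where 9.05% of all genes were called. The median log2 fold change of the 10 members was -0.59 in the first comparison, beside 0.11 over all genes, and 0.70 in the second, beside -0.04. With tumour 3 alone the medians of the members were 0.08 and -0.03. Leaving out tumour 3, so that the tumour group held only tumour 1 and 2, gave 8 and 9 members called, beside 53% and 49.8% of all genes. DESeq2 on the 12 libraries called Pdk3 and Pdk4 in the first comparison, beside 17.8% of all genes, and Pdk3, Pdk4 and Pdp1 in the second, beside 18.6%. The 2 comparisons share the tumour libraries, and their values are therefore only given side by side.

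**Figure D4:**
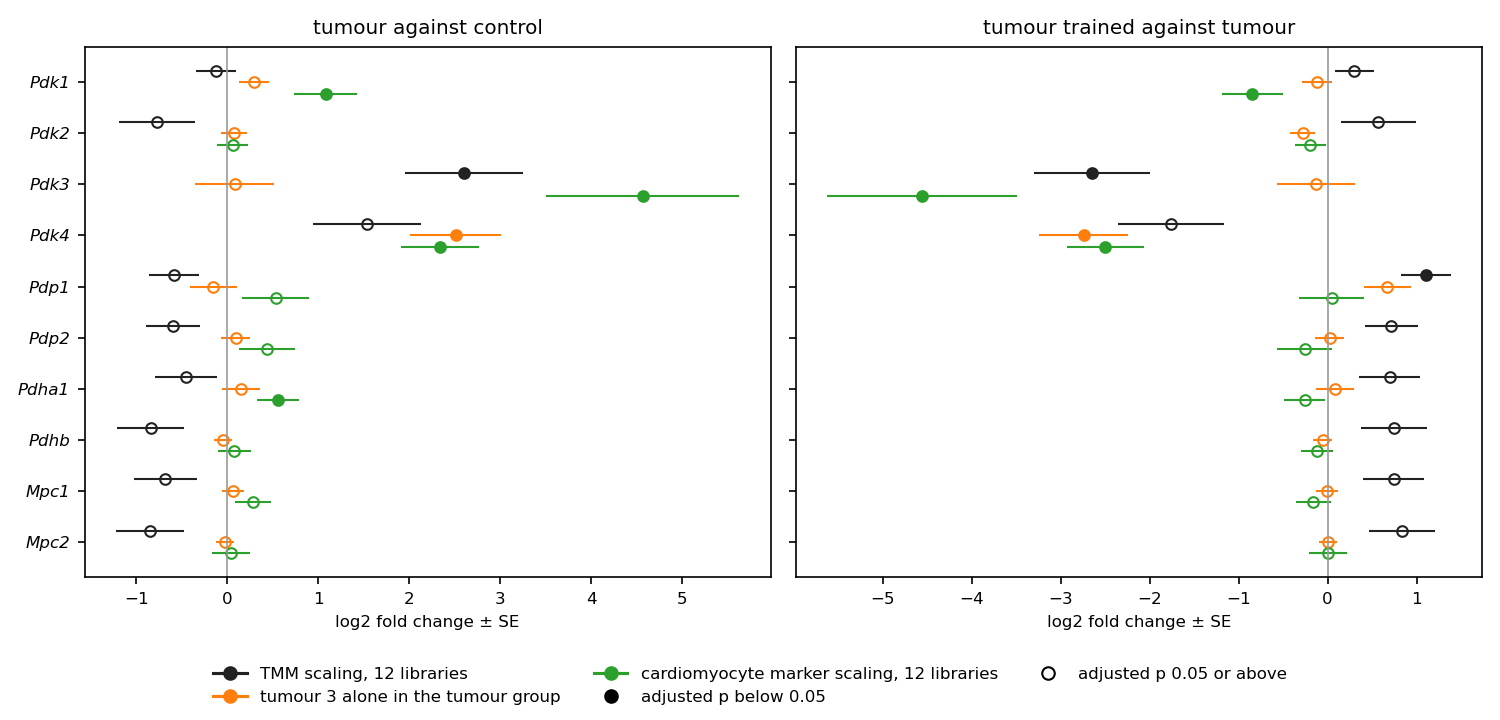
Log2 fold changes with SE (x axis) of the 10 genes (y axis) in tumour against control and in tumour trained against tumour hearts, from fits with 12 libraries (black), with tumour 3 alone in the tumour group (orange) and scaled to cardiomyocyte markers (green); filled points passed an edgeR adjusted p below 0.05. Pdk4 keeps its sign in the 3 fits, at 1.54, 2.51 and 2.34 on the left and -1.76, -2.74 and -2.50 on the right, while Pdk3 is at 0.08 and -0.13 with tumour 3 alone.

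Pdp1 (gene ID 381511), the calcium-stimulated phosphatase isoform, was highest in tumour trained hearts. Its levels were 67.8, 58.9 and 55.9 scaled CPM there, against 16.8, 30.4 and 37.9 in tumour 1, 2 and 3. Control hearts had 42.3, 46.7 and 38.5 and trained hearts 50.1, 32.6 and 58.1 scaled CPM. All 3 tumour trained libraries were above all tumour and all control libraries, and they overlapped those of trained hearts. Tumour trained against control was not tested.

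Pdp1 had a log2 fold change of 1.10 ± 0.28 in tumour trained against tumour hearts (edgeR adjusted p = 0.038). It was 0.67 ± 0.26 with tumour 3 alone (edgeR adjusted p = 0.28) and 0.05 ± 0.37 when scaled to cardiomyocyte markers (edgeR adjusted p = 0.91), so that the call held in neither. It was also lost without any 1 library other than tumour 3 or trained 2, at 0.83 to 1.17. Per 1000 cardiomyocyte marker counts Pdp1 was 0.559, 0.491 and 0.444 in tumour trained and 0.692, 0.453 and 0.305 in tumour hearts, where the groups overlapped.

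Pdp2 (gene ID 382051), the other phosphatase isoform, had 17.2, 27.8 and 50.9 scaled CPM in tumour 1, 2 and 3 and 51.0, 46.2 and 47.1 in control hearts. Trained hearts had 54.1, 54.7 and 50.9 and tumour trained hearts 58.2, 43.9 and 54.8. Only tumour 1 and 2 were outside the range of 43.9 to 58.2 scaled CPM. The log2 fold change in tumour against control hearts was -0.59 ± 0.30 with 12 libraries and 0.09 ± 0.16 with tumour 3 alone (edgeR adjusted p = 0.17 and 0.90). The log2 ratio of Pdp1 to Pdp2 overlapped between the groups in all 4 comparisons of 2 groups, with exact permutation p from 0.2 to 1 and adjusted p from 0.31 to 1.

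Pdha1 (gene ID 18597), the E1 alpha subunit that the kinases phosphorylate, had 486, 952 and 1470 scaled CPM in tumour 1, 2 and 3. Control hearts had 1328, 1455 and 1213, trained hearts 1522, 934 and 1446, and tumour trained hearts 1534, 1599 and 1575. Tumour trained libraries were above all tumour libraries, and the log2 fold change was 0.70 ± 0.34 (edgeR adjusted p = 0.18). Pdha1 was the only member with deposited counts that were not whole numbers, in 12 of 12 libraries, and how such reads were counted is not stated. Scaled to the cardiomyocyte markers, Pdha1 was higher in tumour than control hearts by 0.56 ± 0.23 on the log2 scale (edgeR adjusted p = 0.046), less than the shift of all genes. Under that scaling 4 of the 10 members were called in this comparison, all higher, beside 71.3% of all genes, and 3 of 10 in tumour trained against tumour hearts, all lower, beside 59.7%.

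Pdhb (gene ID 68263), the E1 beta subunit, had 234, 438 and 910.0 scaled CPM in tumour 1, 2 and 3. The other 9 libraries lay between 855 and 988. The log2 fold change in tumour against control hearts was -0.85 ± 0.37 with 12 libraries (edgeR adjusted p = 0.13) and -0.05 ± 0.10 with tumour 3 alone (edgeR adjusted p = 0.93). Per cardiomyocyte marker count Pdhb was 1.30, 0.88 and 0.99 times the control mean in tumour 1, 2 and 3.

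Both subunits of the pyruvate carrier had the same order among the tumour libraries. Mpc1 (gene ID 55951) was at 258, 474 and 908 and Mpc2 (gene ID 70456) at 70.2, 138 and 297 scaled CPM in tumour 1, 2 and 3. Elsewhere Mpc1 was at 806 to 977 and Mpc2 at 297 to 319 scaled CPM. Mpc2 varied little within the other groups, with means of 304 ± 7.39 in control, 310 ± 8.03 in trained and 299.8 ± 3.75 scaled CPM in tumour trained hearts (SD, n = 3).

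With tumour 3 alone, tumour against control gave 0.06 ± 0.12 for Mpc1 and -0.03 ± 0.10 for Mpc2 on the log2 scale (edgeR adjusted p = 0.93 and 0.97). With 12 libraries the values were -0.68 ± 0.35 and -0.85 ± 0.37 (edgeR adjusted p = 0.18 and 0.13). Scaled to the cardiomyocyte markers they were 0.28 ± 0.19 and 0.04 ± 0.21 (edgeR adjusted p = 0.20 and 0.87). The direction of Mpc1, Mpc2, Pdhb, Pdha1 and Pdk2 in tumour against control hearts therefore changed with the scaling. In that comparison the direction of Pdk1, Pdp1 and Pdp2 changed too. In tumour trained against tumour hearts the direction of Pdk1, Pdk2, Pdp2, Pdha1, Pdhb and Mpc1 changed with the scaling. There Mpc2 was at 0.83 ± 0.37 with 12 libraries and 0.0028 ± 0.21 when scaled to the cardiomyocyte markers. No direction is given for any of these genes in the comparison named.

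Training in tumour-free mice gave no call. None of the 10 members passed the edgeR test in trained against control hearts, nor did any gene of the table (0% called), although 278 genes had an unadjusted p below 0.05, none of them a member. DESeq2 called 3 genes, again none of the members. Pdk4 had the largest difference of the members in this comparison, a log2 fold change of 0.54 ± 0.58 (edgeR adjusted p = 1), with trained 1 and 2 above and trained 3 inside the control range. Left-out libraries moved this value between 0.23 (without control 1) and 0.84 (without control 3). The other 9 members were between -0.35 and 0.14.

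Tumour trained against trained hearts gave no call either (0% of genes, 150 genes at an unadjusted p below 0.05, and 3 genes by DESeq2, none of them a member). Pdk4 had a log2 fold change of -0.77 ± 0.59 (edgeR adjusted p = 1). Pdk1 and Pdha1 were above all trained libraries in all 3 tumour trained libraries, by 0.26 ± 0.22 and 0.27 ± 0.34 on the log2 scale (edgeR adjusted p = 1 for each). The log2 ratio of Pdk1 to Pdk2 was higher by 0.37 in tumour trained than in trained hearts, with no overlap (exact permutation p = 0.1, adjusted p = 0.25).

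The interaction asks whether the difference made by training differed between tumour-bearing and tumour-free mice. For Pdk4 it was -2.30 ± 0.84 on the log2 scale with 12 libraries (edgeR adjusted p = 0.30) and -3.28 ± 0.64 with tumour 3 alone (edgeR adjusted p = 0.077). No member passed in either fit, and 0.0235% and 0.246% of all genes did. Without tumour 3, 8 members passed, beside 30.1% of all genes. Scaled to the cardiomyocyte markers the Pdk4 value was -3.02 ± 0.59 (edgeR adjusted p = 0.13), beside a median of -1.46 over all genes, of which 0.00783% passed.

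Per kilobase of exon, the order of the members in control hearts was led by Mpc1, at 421 ± 42.9 scaled CPM per kilobase, and Pdha1, at 357 ± 32.5 (SD, n = 3), whose libraries overlapped. Pdk2 at 259 ± 10.8, Pdhb at 245 ± 10.0 and Pdk4 at 201 ± 86.8 followed, each overlapping its neighbour. Mpc2 at 41.4 ± 1.01 and Pdk1 at 26.1 ± 1.79 came next without overlap. Pdp1 at 9.44 ± 0.91 and Pdp2 at 8.46 ± 0.45 overlapped, and Pdk3 was lowest at 1.10 ± 0.20. In tumour hearts Pdk4 came first at 583 ± 489, overlapping Mpc1 at 263 ± 159. In tumour trained hearts Pdk4 was again below Pdhb and Pdk2, at 172 ± 70.5, overlapping Pdk2. The order between genes depends on the exon lengths used, such as 2082 bases for Mpc1 and 7344 bases for Mpc2.

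Other parts of the complex were examined as a list of 9 genes for its remaining subunits, their lipoylation and the related branched-chain kinase and phosphatase. None was called in tumour against control hearts, where the median log2 fold change was -0.33, beside 0.11 over all genes. Ppm1k was the only 1 of 9 called in tumour trained against tumour hearts, beside 9.05% of all genes. It encodes the phosphatase that activates the branched-chain ketoacid dehydrogenase. Its levels were 130.0, 161 and 139 scaled CPM in tumour trained and 33.7, 57.4 and 81.8 in tumour 1, 2 and 3, without overlap. The log2 fold change was 1.31 ± 0.29 (edgeR adjusted p = 0.036), 0.79 ± 0.27 with tumour 3 alone (edgeR adjusted p = 0.22) and 0.28 ± 0.34 when scaled to cardiomyocyte markers (edgeR adjusted p = 0.46), so that the call held in neither. Dlat, the E2 core enzyme, had 225, 356 and 564 scaled CPM in tumour 1, 2 and 3 and 539 to 624 in control hearts.

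Of 17 listed genes of pyruvate supply and its other fates, 15 were tested. Slc16a3, the lactate exporter of glycolytic cells, was higher in tumour than control hearts and lower in tumour trained than tumour hearts. Its levels were 136, 48.4 and 1.94 scaled CPM in tumour 1, 2 and 3 and 1.40 to 4.20 in the other groups, and with tumour 3 alone it was not called. Slc16a7, another monocarboxylate carrier, was called in tumour trained against tumour hearts with 12 libraries, at a log2 fold change of 1.08 ± 0.29 (edgeR adjusted p = 0.045). It was at 0.54 ± 0.30 with tumour 3 alone and at -0.10 ± 0.45 when scaled to cardiomyocyte markers (edgeR adjusted p = 0.41 and 0.85), where the direction turned. No other gene of the list passed in these comparisons with 12 libraries, where 6.8% and 9.05% of all genes passed.

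Among 16 factors known to control Pdk4, none was called in tumour against control hearts with 12 libraries, where 6.8% of all genes were. In tumour trained against tumour hearts 1 of 16 was called, beside 9.05% of all genes. Nr3c1, which encodes the glucocorticoid receptor, was called in tumour trained against tumour hearts with 12 libraries, at a log2 fold change of 1.08 ± 0.22 (edgeR adjusted p = 0.036), with 107, 125 and 115 scaled CPM in tumour trained and 51.0, 55.7 and 57.3 in tumour hearts. That call was lost with tumour 3 alone (1.00 ± 0.32, edgeR adjusted p = 0.19), and the direction turned when scaled to cardiomyocyte markers (-0.25 ± 0.48, edgeR adjusted p = 0.64). Foxo3 had 256 scaled CPM in tumour 3 and 85.5 to 151 in the other 11 libraries. With tumour 3 alone it was higher in tumour than control hearts (1.10 ± 0.13, edgeR adjusted p = 0.0024) and lower in tumour trained than tumour hearts (-0.85 ± 0.13, edgeR adjusted p = 0.015).

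PPAR targets of fat use include genes that raise the supply and oxidation of fatty acids. With 12 libraries 3 of 18 were higher in tumour than control hearts and none lower, beside 6.8% of all genes called. Among them were Angptl4, an inhibitor of lipoprotein lipase (2.44 ± 0.50), and Plin2, a lipid droplet coat protein (0.96 ± 0.14), with edgeR adjusted p of 0.039 and 0.028. Angptl4, Plin2 and Ucp2 were the 3 of 18 lower in tumour trained than tumour hearts, beside 9.05% of all genes called. The median of the list was -0.06 and -0.03 in these comparisons, beside 0.11 and -0.04 over all genes.

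With tumour 3 as the only tumour library, Acot1, Angptl4, Cpt1a, Plin2 and Ucp3 had log2 fold changes of 2.12, 2.72, 0.83, 1.14 and 1.76 in tumour against control hearts. In tumour trained against tumour hearts Acot1, Acot2, Cpt1a, Plin2, Plin5 and Ucp2 were at -2.18, -0.90, -0.87, -1.12, -1.13 and -1.33. These genes were picked by their results in that fit. The medians of all 18 were 0.71 and -0.82, beside 0.02 and 0.00 over all genes. With 12 libraries Acot1, Cpt1a and Ucp3 did not pass in tumour against control hearts (edgeR adjusted p = 0.080, 0.072 and 0.24). Acot1, Acot2, Cpt1a and Plin5 did not pass in tumour trained against tumour hearts either. In tumour 1, 2 and 3 Acot1 had 41.3, 23.1 and 104 and Ucp3 30.5, 90.0 and 203 scaled CPM. Control hearts had 20.9 to 26.3 and 41.2 to 79.0. Cpt1a was above all control libraries in all 3. Plin2 had 113, 108 and 133 scaled CPM in tumour 1, 2 and 3 and 56.1 to 71.6 in the other 9 libraries. Angptl4 was also high in trained 1 and 2, at 50.3 and 73.2 scaled CPM, the libraries of the trained group in which Pdk4 was highest.

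Of 8 glucocorticoid targets, Fkbp5 and Mt2 were higher in tumour than control hearts and lower in tumour trained than tumour hearts, both with 12 libraries and with tumour 3 alone. Fkbp5, a co-chaperone of the glucocorticoid receptor, had 84.8, 70.0 and 89.4 scaled CPM in tumour 1, 2 and 3 and 12.3 to 20.5 in the other 9 libraries. All 3 tumour libraries were above all others for this gene without scaling to cardiomyocyte markers, which was not so for Pdk4. Zbtb16 and Sgk1 did not pass, at 1.30 ± 0.46 and -1.27 ± 0.40 in tumour against control hearts (edgeR adjusted p = 0.086 and 0.070). With 12 libraries 2 of 8 were called in tumour against control and in tumour trained against tumour hearts, beside 6.8% and 9.05% of all genes. The median of the list was -0.40 and 0.14 in these comparisons, beside 0.11 and -0.04 over all genes. With tumour 3 alone the median was 0.12 and -0.37, beside 0.02 and -0.00076 over all genes.

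Of 12 hypoxia factor targets, Eno1, Pfkfb3 and Slc2a1 were higher in tumour than control hearts with 12 libraries, beside 6.8% of all genes called. Eno1 had 2759, 1135 and 209 scaled CPM in tumour 1, 2 and 3 and 170 to 246 elsewhere, the order of the melanocyte markers. Eno1 and Slc2a1 were lower in tumour trained than tumour hearts, beside 9.05% of all genes called. Vegfa was called in both comparisons with 12 libraries, at log2 fold changes of -1.23 ± 0.22 and 0.81 ± 0.22 (edgeR adjusted p = 0.039 and 0.047), but was at 0.03 ± 0.37 and -0.39 ± 0.37 when scaled to cardiomyocyte markers (edgeR adjusted p = 0.94 and 0.35), so that no direction is given. Bnip3 was picked by its result with tumour 3 alone. In that fit it had log2 fold changes of 1.40 ± 0.16 in tumour against control and -1.13 ± 0.16 in tumour trained against tumour hearts. Pdk1, the kinase of this pathway, was at 0.29 and -0.12 in the same fit. With 12 libraries Bnip3 passed in neither comparison (edgeR adjusted p = 0.079 and 0.20). Its levels were 327, 347 and 696 scaled CPM in tumour 1, 2 and 3. Tumour trained hearts had 272, 364 and 326, and the 2 groups overlapped.

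Scaled to the cardiomyocyte markers, many more genes of every list were called in tumour against control hearts, all of them higher, beside 71.3% of all genes. They were 4 of 9 for the complex and lipoylation, 7 of 15 for pyruvate supply, 8 of 16 for factors that control Pdk4, 13 of 18 for PPAR targets, 3 of 8 for glucocorticoid targets and 10 of 12 for hypoxia factor targets. The list medians were 0.81, 0.70, 0.79, 0.94, 0.79 and 2.16, beside 1.54 over all genes.

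The genes most like Pdk4 were ranked by Pearson correlation of log2 scaled CPM among 11549 candidates. The ranking is a description without a test, in libraries that differ in depth and tissue make-up. Over the 12 libraries Syt12 (0.87), Ehhadh (0.86), Tmem131l (0.83), Chrna2 (0.81) and Mlxip (0.80) led, and Plin4 was also among the first 10. Over the 10 libraries without tumour 1 and 2, Suv39h1 (0.95), Art4 (0.94), Nt5c3b (0.92), Faap24 (0.91) and Ucp3 (0.91) led. From tumour 1 to tumour 3, Suv39h1 (39.3, 22.6 and 11.7 scaled CPM), Nt5c3b and Faap24 fell where Pdk4 rose, whereas Art4 and Ucp3 rose. Syt12 and Ehhadh were the 2 genes in both lists of 10. Ehhadh, an enzyme of peroxisomal fatty acid oxidation, had 90.2 scaled CPM in tumour 3 and 15.7 to 32.1 in the other 11 libraries.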

How the data were processed

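The deposited values are estimated counts per gene in 1 table of the series, not normalized; 7.09% to 8.92% of the values of a library were not whole, and counts were rounded before testing. Reads were aligned and counted with tools that include HISAT2 2.2.1 and featureCounts, per the submitters' processing notes. These notes name the builds mm10 and GRCm39 without their roles, and the build, annotation and strand setting behind the table are not known here.

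Genes were tested with edgeR 4.0.16 (R 4.3.3) in 1 quasi-likelihood fit of 12 libraries with 1 mean per group (8 residual degrees of freedom), TMM scaling and the default filter on low counts, which removed 4619 genes. A gene was called where its p, adjusted over all tested genes by Benjamini and Hochberg, was below 0.05. Scaled CPM are CPM on the TMM-adjusted library size. Exon lengths are the union of all annotated exons of a gene in GENCODE M21, which may differ from the annotation of the table. Total counts of 8843906 to 13344847 per library limit the precision of low genes such as Pdk3. Ratios within a library were compared by exact permutation (scipy 1.17.1), adjusted over 20 tests. The fit with tumour 3 as the only tumour library had 6 residual degrees of freedom. The edgeR fit of 12 libraries was tried on simulated counts. That trial does not show how this or any other fit performs where replicates differ as much as the tumour libraries. Replicates of a group differed by more than sampling noise and none was merged.

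All 10 members were named whatever their result. Of each list, every gene called and otherwise the up to 4 with the smallest p in tumour against control hearts could be named, and the 10 genes most correlated with Pdk4 were ranked after adding 0.5 scaled CPM, leaving out means below 1 on the log2 scale. Some genes that met these rules are not reported here. Members, lists and alternatives were chosen with earlier results of these data known. Other settings tried were DESeq2 1.42.0, edgeR with the size factors of DESeq2, cardiomyocyte marker scaling, no filter, the replicate number as a block, only the groups compared, each library left out, and tumour 1 and 2 left out.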

Additional observations from a re-analysis of the deposited data

How the results depend on the processing

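Pdk4 was positive in tumour against control hearts in 19 of 19 alternatives (log2 0.56 to 2.51) and passed in 3; in tumour trained against tumour hearts it was negative in 19 of 19 (-2.74 to -0.80) and passed in 3. These 3 were DESeq2, cardiomyocyte marker scaling and tumour 3 alone. Adjusted p ranged from 0.020 to 0.33 and from 0.018 to 0.24. In the other 3 comparisons Pdk4 kept its sign and passed in none. Pdk3 passed in 5 and 6 of 19 alternatives (adjusted p 7.0e-05 to 0.98 and 5.9e-05 to 0.91), and Pdp1 in tumour trained against tumour hearts in 5 of 19 (0.0019 to 0.91). The cause of these changes was not tested.

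The number of members called in tumour against control hearts was 4 with cardiomyocyte marker scaling (71.3% of all genes called), 2 with DESeq2 (17.8%), 0 with the replicate block and 0 with only the groups compared. In tumour trained against tumour hearts it was 3 with cardiomyocyte marker scaling (59.7%), 3 with DESeq2 (18.6%), 0 with the replicate block, 0 with only the groups compared and 1 with tumour 3 alone (0.723%). Leaving out 1 library gave 0 (without control 1) to 8 (without tumour 3, 53% of all genes) members in tumour against control, 0 (without control 1) to 9 (without tumour 3, 49.8%) in tumour trained against tumour, and 0 to 8 (without tumour 3, 30.1%) in the interaction.

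Genes called in tumour against control numbered 869 in the fit reported, 9106 with cardiomyocyte marker scaling, 2269 with DESeq2, 16 with the replicate block, 3 with only the groups compared and 182 with tumour 3 alone. For tumour trained against tumour they numbered 1156, 7629, 2378, 18, 2 and 94. In trained against control there were 3 with DESeq2 and 1 with tumour 3 alone, in tumour trained against trained 3 with DESeq2, and in the interaction 1 with cardiomyocyte marker scaling, 269 with DESeq2 and 32 with tumour 3 alone. Leaving out 1 library gave 4 (without control 2) to 7043 (without tumour 3) genes in tumour against control, 3 (without tumour trained 1) to 6619 (without tumour 3) in tumour trained against tumour, 0 to 1 in trained against control and 2 to 4002 (without tumour 3) in the interaction.

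With cardiomyocyte marker scaling the log2 fold changes in tumour against control changed sign for Pdk1 (1.08), Pdk2 (0.058), Pdp1 (0.53), Pdp2 (0.44), Pdha1 (0.56), Pdhb (0.077), Mpc1 (0.28) and Mpc2 (0.039). For tumour trained against tumour they did so for Pdk1 (-0.85), Pdk2 (-0.20), Pdp2 (-0.26), Pdha1 (-0.26), Pdhb (-0.12) and Mpc1 (-0.16). With tumour 3 alone the sign changed in tumour against control for Pdk1 (0.29), Pdk2 (0.073), Pdp2 (0.093), Pdha1 (0.15) and Mpc1 (0.062), and in tumour trained against tumour for Pdk1 (-0.12), Pdk2 (-0.28), Pdhb (-0.057), Mpc1 (-0.0087) and Mpc2 (-0.00076). Pdk1 in tumour against control ranged from -0.42 (without tumour 3) to 0.065 (without tumour 1).

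Among the ratios, tumour 3 alone gave 0.16 for Pdk1 over Pdk2 in tumour trained against tumour and -0.25 for Pdp1 over Pdp2 in tumour against control, both with the sign changed. Leaving out 1 library gave -0.13 to 0.28 for Pdk1 over Pdk2 in trained against control, -0.050 to 0.23 for Pdp1 over Pdp2 in tumour against control and -0.25 to 0.22 for Pdp1 over Pdp2 in trained against control. Adding 0.5 counts changed no sign.

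Replicate numbers are shared between groups, but 18 correlations between same-numbered libraries were -0.27 to 0.24 and only 3 were above 0.1, so that the block was not used for the results. Pdk3 had 17 to 34 counts in 10 libraries, which limits its precision there.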

Other observations

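Nr4a1, an immediate early gene on the list of factors that control Pdk4, split the control group. It had 599 and 552 scaled CPM in control 2 and 3 and 17.4 in control 1. Tumour trained 2 had 269.8, and the other 8 libraries had 12.3 to 79.1 scaled CPM. Sgk1, a glucocorticoid target, also had 349 and 319 scaled CPM in control 2 and 3 and 57.2 to 158 in the other 10 libraries. Neither gene passed the edgeR test in tumour against control hearts (adjusted p = 0.10 and 0.070).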
